A study of Caenorhabditis elegans with 7 samples.

Results

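The genes described here are acr-9, lgc-50 and F09F7.1 of Caenorhabditis elegans, which encode proteins that receive or tune fast neurotransmitter signals. They are 3 of the 201 genes that the authors' deposited list names, and each has 1 probe set, or 3 of the 22548 probe sets tested on the arrays. They were selected from that list, which holds probe sets higher in DD neurons than in all cells on these same arrays. The difference between the groups is therefore given as a description for these 3 genes, and how many of them pass a threshold is printed only beside the share of all probe sets, with nothing read from it. F09F7.1 carries the newer symbol molo-1 in the RefSeq gene table, and both other symbols are current there.

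The study profiled DD motor neurons, GABA-releasing cells of the ventral nerve cord, against all cells of first-stage (L1) larvae. The 4 DD samples came from strain CZ8332, whose integrated transgene juIs223 carries ttr-39 promoter mCherry and ttx-3 promoter GFP, and the DD cells were sorted on the mCherry signal. The ttx-3 promoter is known from AIY interneurons, and a GFP label is given for the DD samples although the design names mCherry. The 3 all-cell samples came from the wild-type strain N2, so strain, sort and cell type cannot be told apart on these arrays. Both strains were fed bacteria NA22, and the larvae of both hatched overnight in M9 buffer without food at 20 °C and were arrested in growth. RNA of 5 to 10 ng was amplified with a NuGEN kit in both groups. No label says that replicates were grown as separate cultures, so any spread given here may be technical.

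Nicotinic acetylcholine receptors are ring-shaped channels of several subunits of the Cys-loop family that open when acetylcholine binds and let cations into the cell. In the worm's ventral cord, cholinergic motor neurons excite both muscle and the DD neurons, which in turn release GABA onto muscle and relax it. Other channels of the Cys-loop family are gated by amines, GABA or glutamate, and auxiliary proteins set how a receptor assembles, gathers at the synapse or opens. The gene acr-9 encodes a nicotinic receptor subunit, described as a predicted alpha subunit in the authors' table. The product of lgc-50 is a serotonin-gated cation channel, known from RIA interneurons and learned avoidance of pathogen odours. The product of F09F7.1, MOLO-1, is a membrane protein with a single transmembrane pass that associates with the levamisole-sensitive acetylcholine receptor of body muscle and raises its activity.

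On the 7 arrays the tested probe sets had medians of 5.21 to 5.38 on the log2 scale, and the correlation of an array with others of its group averaged 0.960 to 0.971. Of the D-type marker list, 7 of 12 genes could be named, and 6 of them were higher in DD neurons by limma at an adjusted p under 0.05. They too come from the authors' list of probe sets higher in DD neurons. The choice favoured this outcome, so it is neither a check of the label nor independent evidence. The 77 array control probe sets stood at a median of 0.34 above their all-cell level in DD neurons, and 75 of them were higher in DD neurons. Over all tested probe sets the median difference was 0.06.

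For all 3 genes the lowest DD array stood above the highest all-cell array. In RNA of many cells, fewer cells that express a gene and less of its RNA per cell cannot be told apart. The mean log2 differences were 1.64 for acr-9, 1.56 for lgc-50 and 1.12 for F09F7.1, with a median of 1.56 over the 3 beside 0.06 over all probe sets tested and 1.26 over the named ones. Groups that did not overlap in this direction made up 6.98% of all tested probe sets. Among the 222 named probe sets there were 211 such cases, so nothing is read from the count for these 3. By limma, 0 of the 3 passed an adjusted p of 0.05 (Benjamini-Hochberg, over all tested probe sets), where 0.191% of all tested probe sets passed as higher. At an unadjusted p under 0.05 there were 3 of 3, where 6.07% of the tested probe sets were higher, and the choice of the genes fixed this outcome.

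**Figure D1:**
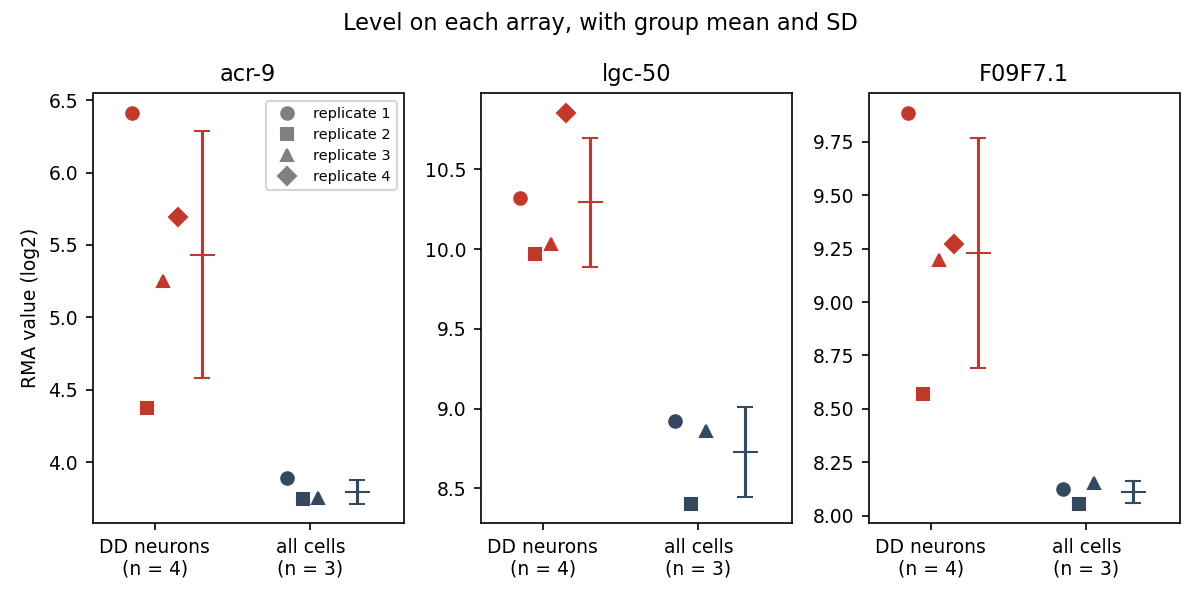
RMA values (log2) of acr-9, lgc-50 and F09F7.1 on each array, with the mean and SD of each group beside the points; the vertical scales differ between panels and do not start at 0. All DD points lie above all all-cell points, and the DD points of acr-9 span 2.04 on the log2 scale while its all-cell points have an SD of 0.08.

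The receptor subunit gene acr-9 was dim in all cells and uneven among the DD arrays. The gene, listed as WBGene00000048 (sequence name C40C9.2), read 6.41, 4.37, 5.25 and 5.69 in DD replicates 1 to 4, and 3.89, 3.75 and 3.75 in all cells replicates 1 to 3. DD replicate 2 stood 0.48 above the highest all-cell array, a 1.40-fold gap, and DD replicate 1 was the highest array. The mean was 5.43 ± 0.85 (SD, n = 4) in DD neurons, and in all cells it was 3.80 ± 0.08 (SD, n = 3). The log2 difference of 1.64 ± 0.42 (SE) corresponds to a 3.11-fold higher mean. From DD replicate 2 to DD replicate 1 the level itself differed by 2.04, or 4.11-fold.

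The all-cell level of acr-9 was low on the array. Between 27.3% and 28.9% of tested probe sets read lower on the all-cell arrays, against 36.4% in DD replicate 2 and 66.8% in DD replicate 1. The 5 control probe sets for yeast genes read from 2.62 to 3.93 on the all-cell arrays and from 2.71 to 4.20 on the DD arrays. The highest of them read 3.93, 3.44 and 3.74 in all cells replicates 1 to 3, where acr-9 read 3.89, 3.75 and 3.75. On its own array acr-9 thus lay below the highest yeast control in replicate 1, above it in replicate 2 and barely above it in replicate 3. The values carry no detection call, so acr-9 was not shown to be above background in all cells and its fold is not exact.

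The serotonin-gated channel gene lgc-50 was bright in both groups. The gene, listed as WBGene00020605 (sequence name T20B12.9), read 10.32, 9.97, 10.03 and 10.85 in DD replicates 1 to 4, and 8.92, 8.40 and 8.86 in all cells replicates 1 to 3. The groups were 1.05 apart at their nearest arrays, or 2.07-fold, the widest gap of the 3 genes. DD replicate 4 was the highest array and all cells replicate 2 the lowest. The means were 10.29 ± 0.40 (SD, n = 4) and 8.73 ± 0.28 (SD, n = 3), a log2 difference of 1.56 ± 0.26 (SE) and a fold of 2.96. On every array at least 86.1% of the tested probe sets read lower than lgc-50.

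The accessory protein gene F09F7.1 (molo-1) had the smallest difference of the 3 genes, and on every array at least 83.2% of the tested probe sets read lower. The gene, listed as WBGene00017299, read 9.88, 8.57, 9.20 and 9.27 in DD replicates 1 to 4, and 8.12, 8.06 and 8.15 in all cells replicates 1 to 3. DD replicate 1 was again the highest array, and DD replicate 2 stood 0.41 above the highest all-cell array, a 1.33-fold gap. DD neurons averaged 9.23 ± 0.54 (SD, n = 4), and all cells averaged 8.11 ± 0.05 (SD, n = 3). The log2 difference was 1.12 ± 0.29 (SE), or 2.17-fold.

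The differences ranked 73rd for lgc-50 and 229th for F09F7.1 among the 22548 probe sets tested, and larger ones were found in 63 and 161 of the 222 named probe sets. The measured difference of acr-9 ranked 64th, a place that is not exact because its all-cell level was not shown to be above background. The genes also differed in how far the DD arrays spread. The SD over the DD arrays exceeded that of 96.2% of all tested probe sets for acr-9, 82.1% for F09F7.1 and 65.8% for lgc-50. Over the all-cell arrays lgc-50 came first, with an SD above that of 58.5% of tested probe sets, against 14.6% for acr-9 and 7.33% for F09F7.1.

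**Figure D2:**
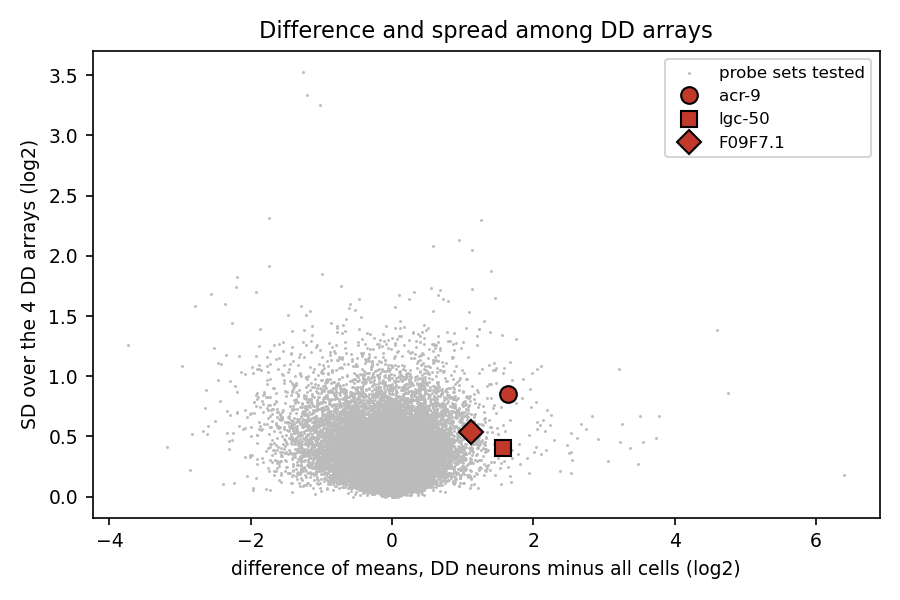
Difference of means between DD neurons and all cells (log2, horizontal) against the SD over the 4 DD arrays (log2, vertical) for each of the 22548 tested probe sets in grey, with acr-9, lgc-50 and F09F7.1 marked. The point of acr-9 lies at a difference of 1.64 and an SD of 0.85, while that of lgc-50 lies at a similar difference, 1.56, with an SD of 0.40.

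The DD spread was set against the all-cell spread for each gene. The SD in DD neurons was 10.3 times that in all cells for acr-9 and 10.9 times for F09F7.1, but 1.42 times for lgc-50. The median ratio over all tested probe sets was 1.34, and ratios as large as those of acr-9 and F09F7.1 occurred in 3.92% and 3.71% of them. The all-cell values of acr-9 were low on the array. They lay below the highest yeast control probe set in all cells replicate 1 and above it in replicates 2 and 3. Whether this low signal limits the SD of acr-9 there was not tested, so its ratio is not exact. An SD over 3 arrays is itself imprecise, and these ratios were not tested.

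The values of acr-9 and F09F7.1 followed each other over the DD arrays. In all cells the order differed, with acr-9 highest in replicate 1 (3.89) and F09F7.1 in replicate 3 (8.15). Relative to the all-cell mean, acr-9 stood at 2.62, 0.58, 1.46 and 1.90 in DD replicates 1 to 4. The same quantity was 1.77, 0.46, 1.09 and 1.16 for F09F7.1, with the arrays in the same order. For lgc-50 it was 1.59, 1.24, 1.30 and 2.12, with DD replicate 4 and not DD replicate 1 at the top. DD replicate 2 was the lowest DD array for all 3 genes. On the DD arrays a deviation of 1 in acr-9 went with a deviation of 0.62 in F09F7.1 (log2).

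As a measure of likeness, Pearson's r over the 7 arrays was 0.994 between acr-9 and F09F7.1 (Spearman's rho 0.964). It was 0.868 between acr-9 and lgc-50 (rho 0.964) and 0.860 between lgc-50 and F09F7.1 (rho 0.929). The 2 groups form separate clusters and all 3 genes were chosen as higher in one of them, so these values carry no p. Without the 2 arrays farthest from the acr-9 median, DD replicates 1 and 4, r was 0.994 with F09F7.1 and 0.865 with lgc-50. Between lgc-50 and F09F7.1 it was 0.769 without all cells replicates 2 and 3.

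The group difference can be taken out by subtracting the group mean. The correlation of the deviations left over was then 0.983 between acr-9 and F09F7.1, 0.491 between acr-9 and lgc-50 and 0.381 between lgc-50 and F09F7.1. On the DD arrays alone r was 0.987 between acr-9 and F09F7.1. Their SDs were 0.85 and 0.54 there, against 0.08 and 0.05 on the all-cell arrays. The value of 0.983 thus rests almost wholly on the 4 DD arrays. All points of one array share its RNA, amplification and normalization. Of the 22547 other tested probe sets, 7 followed acr-9 more closely in their deviations than F09F7.1 did, and 12 followed F09F7.1 more closely than acr-9 did. Those probe sets are unnamed here. Whether the 2 probe sets share sequence was not analysed here.

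**Figure D3:**
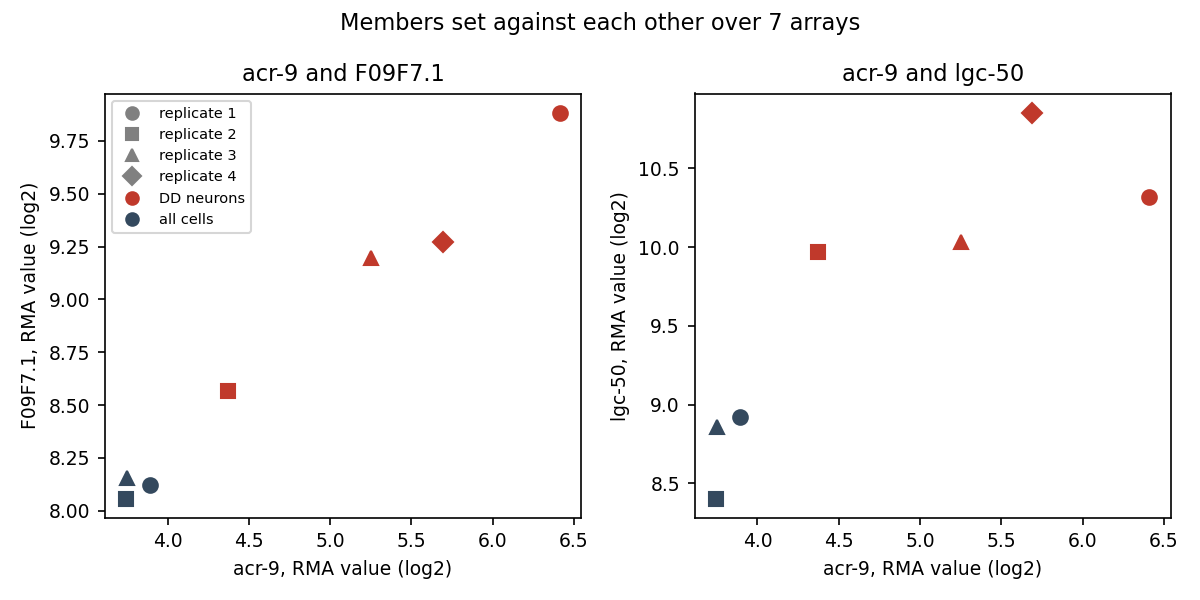
RMA values (log2) of F09F7.1 (left) and lgc-50 (right) against those of acr-9 on the same 7 arrays, with colour for the group and marker shape for the replicate number. The DD points of F09F7.1 rise with acr-9 in the same order, whereas lgc-50 peaks at 10.85 in DD replicate 4, where acr-9 reads 5.69.

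Other measures of each array were set beside these deviations. The mean of the 7 named D-type genes was 9.55, 9.11, 9.32 and 9.71 (log2) in DD replicates 1 to 4, lowest in DD replicate 2 like the 3 genes. Its deviations over the 7 arrays correlated at 0.623 with acr-9, 0.534 with F09F7.1 and 0.337 with lgc-50. The median of the array control probe sets was 4.63, 4.26, 4.26 and 4.02 in DD replicates 1 to 4, highest in DD replicate 1, with correlations of 0.454 for acr-9, 0.537 for F09F7.1 and -0.185 for lgc-50. The array medians correlated at -0.136 with acr-9, 0.045 with F09F7.1 and -0.648 with lgc-50. DD replicate 2 was the lowest DD array in 33.3% of the named probe sets and in 22.95% of all tested ones. DD replicate 1 was the highest in 32.9% and 35.4% of them. The part of these measures in the spread of acr-9 and F09F7.1 was not tested.

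**Figure D4:**
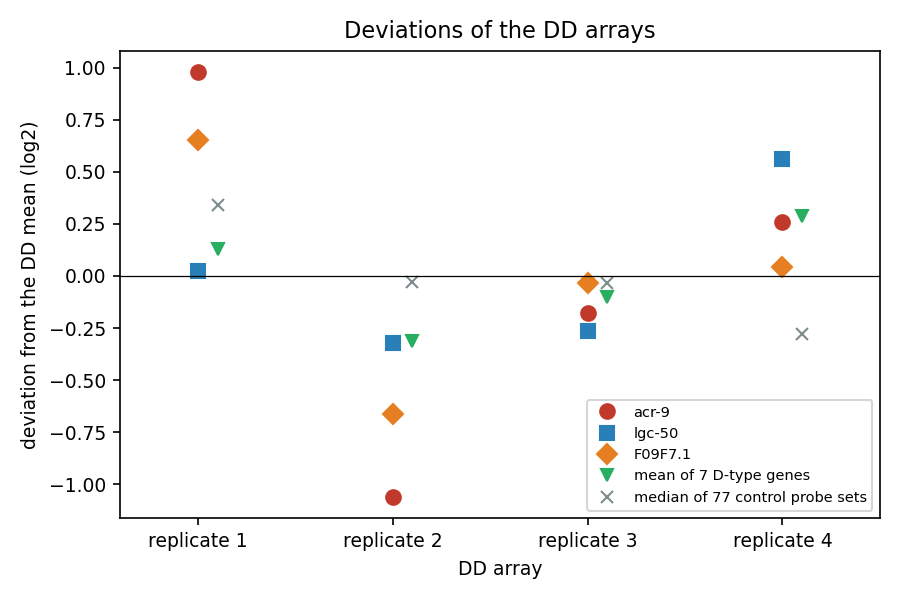
Deviation of each DD array from the DD mean (log2) for acr-9, lgc-50 and F09F7.1, with the mean of 7 D-type genes and the median of the 77 control probe sets for comparison. In DD replicate 1 acr-9 lies 0.98 and F09F7.1 0.65 above its mean while lgc-50 lies at 0.02, and in DD replicate 2 all 3 genes lie below their means.

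By r over the 7 arrays, each of acr-9 and F09F7.1 had the other as its most similar named probe set of another gene, among 221 candidates. The next for both was mab-9, a T-box transcription factor gene, with r of 0.970 to acr-9 and 0.956 to F09F7.1. It read 8.26, 6.65, 6.98 and 8.15 in DD replicates 1 to 4 and 5.64, 5.59 and 5.77 in all cells replicates 1 to 3. Like acr-9 and F09F7.1, mab-9 spread widely among the DD arrays, with an SD of 0.82, and little among the all-cell arrays, with an SD of 0.09. The third was cah-6, a carbonic anhydrase family gene, for acr-9 (0.943) and Y39B6A.7 for F09F7.1 (0.946). In deviations from the group means the correlation with acr-9 was 0.906 for mab-9 and 0.826 for cah-6, and with F09F7.1 it was 0.840 for mab-9 and 0.898 for Y39B6A.7.

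The genes most like lgc-50 were others. They were itsn-1, which encodes intersectin, a scaffold of endocytosis (r = 0.989), C11E4.6 (0.977) and hum-2, which encodes an unconventional myosin (0.975). The correlation of deviations with lgc-50 was 0.919, 0.874 and 0.814 for these genes in that order. The probe set of hum-2 is marked as matching several transcripts. The gene itsn-1 read 8.03, 7.95, 8.04 and 8.61 in DD replicates 1 to 4 and 7.23, 6.66 and 6.91 in all cells replicates 1 to 3. As in lgc-50, DD replicate 4 was the highest array and all cells replicate 2 the lowest. All candidates were selected as higher in DD neurons on these arrays, which alone raises r over the 7 arrays.

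Few other genes of these pathways could be named. Of 33 nicotinic receptor subunit genes on the list used here acr-9 alone had a named probe set, and of 76 genes for other Cys-loop channels lgc-50 alone. Of 15 genes for assembly, accessory and clustering proteins of acetylcholine receptors 2 were named, F09F7.1 and F53B6.2, whose current symbol is madd-4 and whose secreted product gathers receptors at neuromuscular junctions. By its brighter probe set F53B6.2 read 10.15, 10.08, 10.54 and 11.004 in DD replicates 1 to 4 and 7.78, 7.53 and 8.56 in all cells replicates 1 to 3. It was the only called gene of these lists, at a log2 difference of 2.48 ± 0.32 (SE, limma adjusted p = 0.0251), and was itself selected as higher. Its other probe set had a difference of 2.38 ± 0.23 (SE, limma adjusted p = 0.00977). Both probe sets of F53B6.2 are marked as matching several transcripts. The brighter probe set lost its call without any 1 array other than all cells replicate 3. None of 14 genes for ionotropic glutamate receptors and none of 19 for muscarinic, serotonin, dopamine and GABA-B receptors had a named probe set. The other genes of these lists were not analysed here, including the levamisole receptor subunits with which MOLO-1 works in muscle.

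Markers of other cells that could hold these transcripts were scarcely named. Of 17 body muscle markers, ttn-1 alone was named, at 8.54, 8.09, 8.08 and 7.81 in DD replicates 1 to 4 and 6.87, 6.44 and 7.54 in all cells replicates 1 to 3 by the probe set not marked as matching several transcripts. Its groups did not overlap either, and it was not called at a log2 difference of 1.18 (limma adjusted p = 0.134). The other probe sets of ttn-1, marked as matching several transcripts, had larger differences of 2.11 and 1.94. Their groups did not overlap, and they were not called (limma adjusted p = 0.155 and 0.158). Intestine, epidermis and germ line had 1 named marker each (acdh-1, ptr-24 and pgl-1), with log2 differences of 1.86, 1.03 and 1.07 and no call (limma adjusted p = 0.189, 0.0973 and 0.224). The probe sets of ptr-24 and pgl-1 are marked as matching several transcripts. None of the markers of AIY interneurons, cholinergic motor neurons, pharynx and glia could be named, and for RIA interneurons only lgc-50 itself. All named markers come from the authors' list of probe sets higher in DD neurons on these arrays. The choice therefore favoured their direction and their lack of overlap, and the remaining markers were not analysed here. The part of other cells in the 3 differences was not tested.

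The 3 genes lie apart from each other in the annotation. Between the nearest protein-coding genes by start position in RefSeq (WBcel235), acr-9 lies next to twk-20 and C40C9.3, lgc-50 next to trd-1 and alh-12, and F09F7.1 next to nspb-12 and F56D2.5. None of these 6 neighbours was named on the authors' list.

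The direction of the 3 differences was the same whichever array was left out and under 4 other ways of fitting or scaling. Of these, the replicate block gave the same differences as leaving out DD replicate 4, so it adds no separate estimate. The value of acr-9 ranged from 1.31 without DD replicate 1 to 1.99 without DD replicate 2. That of F09F7.1 ranged from 0.86 with arrays scaled on the control probe sets to 1.34 without DD replicate 2. That of lgc-50 ranged from 1.30 with arrays scaled on the control probe sets to 1.67 without DD replicate 2. Scaling on the controls moved the median of all probe sets from 0.06 to -0.20. It subtracts the same value from all probe sets of an array, so differences relative to that median cannot change. They were 1.58, 1.51 and 1.06 for acr-9, lgc-50 and F09F7.1 before and after this scaling. Because the genes were chosen as higher on these arrays, a direction that holds is no sign of stability.

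**Figure D5:**
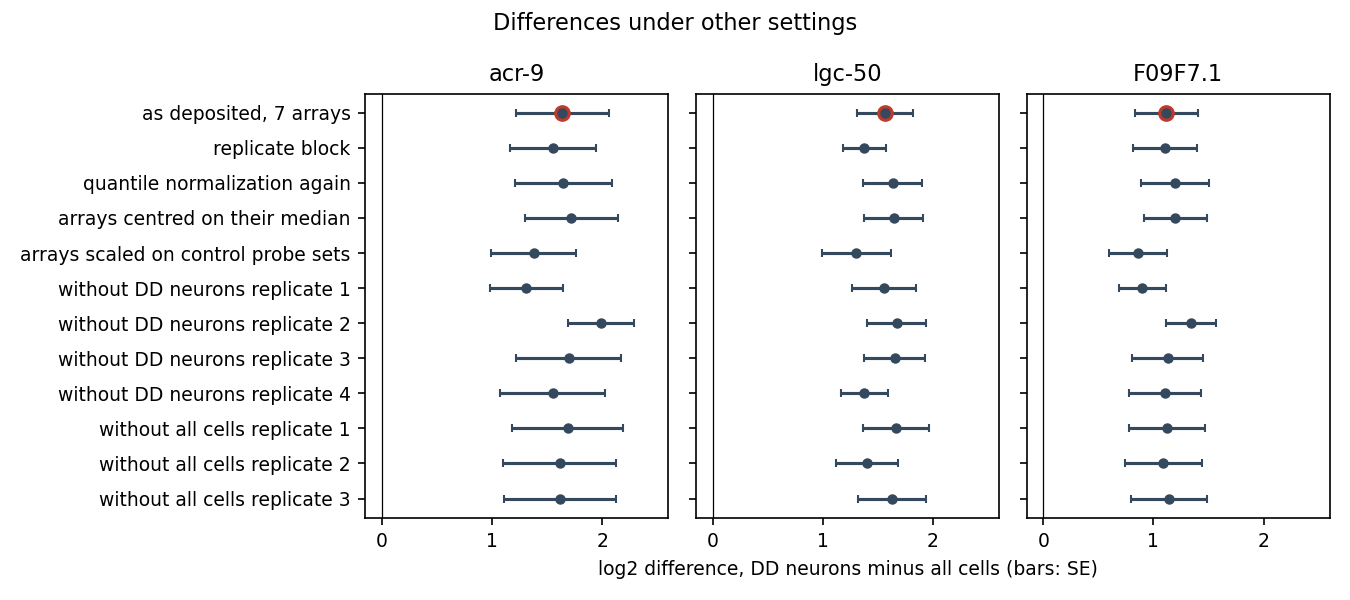
Log2 difference between DD neurons and all cells with its SE for acr-9, lgc-50 and F09F7.1, as deposited (ringed in red) and under 11 other settings. All values lie above 0, and leaving out DD replicate 1 or 2 moves acr-9 to 1.31 or 1.99. The replicate block and the setting without DD replicate 4 have the same differences.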

How the data were processed

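Each Affymetrix array measured 1 RNA sample, 4 of DD neurons and 3 of all cells, grouped and numbered by the sample titles. The authors deposited log2 values made with RMA, per the submitters' processing notes; the version and the definition of the probe sets are not given in the sources used here. Per the file headers, the authors' deposited list of 236 probe sets gives a score, a log2 numerator, a fold change as a ratio and a q-value in percent. The numerators equal the differences of group means of the log2 values within 6.66e-15, and the other columns were not used here.

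Gene names came from that list, which pairs 222 probe sets with 201 genes, 198 of them matched to RefSeq (WBcel235). The members and gene lists were chosen with earlier results of these data known. After 77 array controls were left out, 22548 probe sets were fitted with limma 3.58.1 (R 4.3.3, lmFit and eBayes, no covariates) and p-values adjusted over all of them (Benjamini-Hochberg, two-sided). SE values are limma's moderated ones. The fit was run on simulated data with the same SD in both groups and no shifts of whole arrays. Those data do not cover genes of unequal spread such as acr-9 and F09F7.1. Likeness, ranks and figures were made with Python 3.11.15. The named genes are the members, list genes, up to 3 markers a list and the 3 named genes most like each member by Pearson's r. Alternatives were a replicate block, array controls kept, a filter on dim probe sets, 3 other scalings, a variance trend and each array left out. Averaging probe sets of a gene changed nothing, as each member has 1. The number of arrays limits the precision.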

Additional observations from a re-analysis of the deposited data

Results flagged for a closer look

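Among 21 genes of the text and its lists, 2 had 1 DD array far from its 3 fellows, which chance alone gives in about 1 of 20 groups. Neither is acr-9, lgc-50 or F09F7.1. For itsn-1, the gene most like lgc-50, DD replicate 4 read 8.61 (log2) against 7.95 to 8.04 on the rest. For unc-25, which makes GABA, DD replicate 2 read 10.84 against 11.39 to 11.46 on the 3 remaining DD arrays. Groups of 3 arrays were not examined.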

How the results depend on the processing

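The counts over all probe sets moved with the setting. The differences of acr-9, lgc-50 and F09F7.1 moved by less than their SDs over the DD arrays (0.85, 0.40 and 0.54). Those of acr-9 and F09F7.1 moved by more than their all-cell SDs (0.08 and 0.05). Leaving out 1 DD array moves a mean by only part of the deviation of that array, so small moves are no sign of stability. Against 43 higher and 51 lower calls by limma, there were 2 and 0 with the replicate block (1444 and 2075 at an unadjusted p under 0.05), 65 and 93 were made among brighter probe sets, and 22 and 27 with arrays scaled on the controls. After quantile normalization again there were 43 higher and 33 lower, and after centring on array medians 47 and 28. With a variance trend there were 41 higher and 42 lower. Of the 3 genes, lgc-50 passed with that trend and among the brighter probe sets, where acr-9 was filtered out. None passed in the other settings, and nothing is read from this. Without 1 array there were 6 to 23 higher and 0 to 39 lower (6 and 0 without DD replicate 1, with 1211 and 1779 at an unadjusted p under 0.05). Groups did not overlap, with DD neurons higher, in 1573 probe sets, in 796 when only brighter ones were tested, in 4123 after centring, in 334 with arrays scaled on the controls, and in 2006 to 3238 without 1 array. The call of F53B6.2, the only 1 in the receptor lists, went to 0 with the block (adjusted p = 0.114), with scaling on the controls (0.0777) and from 1 to 0 without 1 array, except all cells replicate 3 (0.0448 to 0.135). Leaving out an array can only raise the count of groups that do not overlap, and testing fewer probe sets can only lower it. The causes of the other changes were not tested. Same-numbered arrays had correlations of deviations of -0.01, 0.07 and 0.09, and those of different number had -0.19 to 0.15. These values cannot tell whether same-numbered arrays share a day or culture, which no label states. With the replicate block the differences were 1.55 for acr-9, 1.38 for lgc-50 and 1.10 for F09F7.1. They equal those without DD replicate 4, because no all-cell array has its number and the block takes it out of the comparison. The correlation of deviations between acr-9 and F09F7.1, an alternative chosen after seeing the data, ranged from 0.947 to 0.994 over 10 settings, and each was the other's closest named probe set in 6 of them. On the all-cell arrays 27.3% to 28.9% of tested probe sets read lower than acr-9. Its level there was not shown to be above background, so its fold is not exact.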
